A study of Aconitum japonicum with 4 samples.

Results

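The comparison described here set the leaf of *Aconitum japonicum* against its root organs, transcript by transcript. *A. japonicum* is a medicinal plant with toxic diterpene alkaloids. It grows from a tuber, the mother root, which forms a new tuber, the daughter root, and both carry thin rootlets. The RNA-seq data comprise 4 libraries, namely 1 of leaf and 1 of each root organ (mother root, daughter root, rootlet), from greenhouse-grown plants for which no treatment is given. According to the study's methods the RNA came from single biological replicates, so no difference between organs can be set against a spread over plants. Transcripts entered the comparison when they had at least 10 fragments in leaf or at least 10 fragments in each of the 3 root libraries, which held for 33698 of the 129760 assembled transcripts, from 24187 Trinity genes. A Trinity gene is a cluster of transcripts that the assembler built from shared sequence, and the split of reads among its transcripts is uncertain. Expression is given as FPKM, the fragments per kilobase of transcript, scaled to the mapped fragments of the library. The leaf FPKM was set against the mean FPKM of the 3 root libraries (the root mean), and log2 ratios were taken after adding 1 to both, which pulls the ratios of weakly expressed transcripts towards 0.

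Leaf cells carry chloroplasts, in which light energy is captured through the photosystems and passed through ferredoxin to make reducing power. Underground organs largely lack this machinery and serve for storage, uptake and, in *Aconitum*, the accumulation of diterpene alkaloids. The terpenoid precursors of these alkaloids can be made by the mevalonate (MVA) pathway outside the plastid or by the methylerythritol phosphate (MEP) pathway inside it, after which cyclases and cytochrome P450 enzymes shape the diterpene skeleton.

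The libraries held 4516426 fragments in leaf, 11801534 in the mother root, 12792781 in the daughter root and 4492151 in the rootlet. For an effective transcript length of 1 kb, 10 fragments corresponded to 2.21 FPKM in leaf, 0.847 in the mother root, 0.782 in the daughter root and 2.23 in the rootlet. The minimum of 10 fragments therefore asked for a higher FPKM in leaf and in rootlet than in the tubers. The leaf label was checked against transcripts described as parts of the photosynthetic apparatus. The alpha subunit of cytochrome b559, a core protein of photosystem II (TR836|c0_g1_i1), had an FPKM of 23.7 in leaf, against 0 in the mother root, 0.19 in the daughter root and 0 in the rootlet. It was the only member among the 4 entries described as photosynthetic in the annotation held, which covers a small part of the assembly. The study's sheet of transcripts seen in leaf alone was chosen by expression and is therefore no independent evidence. Only a part of it, 1886 entries, was held. There, 13 of 621 described entries matched the same words and 10 of them passed the minimum.

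Leaf stood apart from the root organs, which resembled each other. Over the 33698 transcripts, the Pearson correlation of log2(FPKM + 1) was 0.48 between leaf and mother root, 0.45 between leaf and daughter root and 0.41 between leaf and rootlet. Between root libraries it was 0.90 for mother and daughter root, 0.88 for mother root and rootlet and 0.81 for daughter root and rootlet. These values are across transcripts, which are not independent replicates, and the rule that admits transcripts seen in leaf alone lowers those with leaf. Over the 20528 transcripts with at least 10 fragments in all 4 libraries, leaf correlated at 0.73 with mother root and at 0.70 with both daughter root and rootlet, and those between root libraries lay between 0.80 and 0.90.

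At least 4-fold higher FPKM in leaf than in the root mean was found for 4528 transcripts (13.4% of those compared), and at least 4-fold lower FPKM in leaf for 2855 (8.47%). The remaining 26315 lay within 4-fold, and the median log2 ratio over all was 0.08. How a transcript entered the comparison bears on these counts. Of the 9253 transcripts that passed through leaf alone, 3841 were higher in leaf, and of the 3917 that passed through the roots alone, 1699 were lower in leaf, and in both cases the rule itself favours that direction. Among the 20528 transcripts with at least 10 fragments in every library the order of the counts was the other way round. There, 687 (3.35%) were at least 4-fold higher in leaf and 1135 (5.53%) at least 4-fold lower, with a median log2 ratio of -0.16. In bulk tissue, fewer cells of a type and less RNA per cell cannot be told apart.

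**Figure D1:**
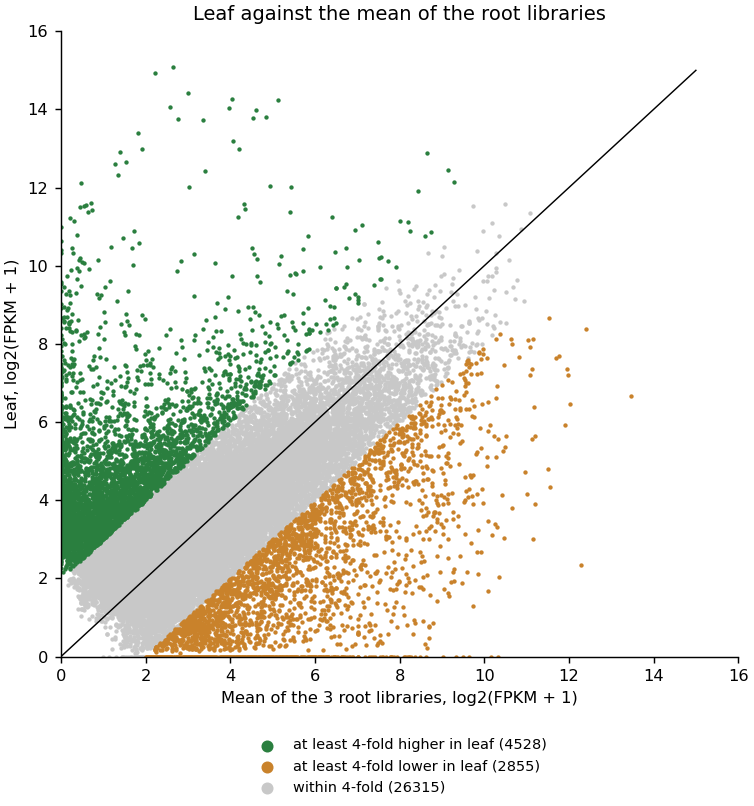
Leaf expression (vertical axis) against the mean of the 3 root libraries (horizontal axis), both as log2(FPKM + 1), for the 33698 transcripts compared. Each point is a transcript, the line marks equal expression, and the 4528 transcripts at least 4-fold higher in leaf lie above the grey band while the 2855 at least 4-fold lower in leaf lie below it.

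Transcripts just inside the minimum looked like those just outside it. With exactly 10 fragments in leaf and fewer than 10 in some root library, 1104 transcripts had a median log2 ratio of 1.13, and with 9 fragments 1308 had 1.12. With exactly 10 fragments in the lowest root library and fewer than 10 in leaf, 472 transcripts had a median of -0.91, and with 9 fragments 566 had -0.83.

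The calls were also counted against each root library. An arithmetic mean lets 1 high root library carry a call lower in leaf, whereas 1 high root library holds back a call higher in leaf. The shares below are therefore partly fixed by the mean. With a geometric mean, 4924 transcripts were at least 4-fold higher in leaf and 2441 at least 4-fold lower. Leaf exceeded each of the 3 root libraries by at least 4-fold for 3353 transcripts (9.95% of those compared), all of them among the 4528. Of the rest of the 4528, 1046 were past 4-fold against 2 root libraries and 129 against only 1. Leaf was below each of the 3 by at least 4-fold for 1280 (3.8%), all of them among the 2855. Another 1001 of the 2855 were past 4-fold against 2 root libraries and 574 against only 1. Among the 2855, the root library with the highest FPKM was rootlet for 1414, daughter root for 763 and mother root for 678. Among the 4528 it was mother root for 2281, rootlet for 1206 and daughter root for 1041. Ties were counted as mother root, so its number is inflated by transcripts with 0 FPKM in every root library. The 302 compared transcripts from the held part of the study's sheet of transcripts seen in leaf alone were such ties, and others may be. The rootlet library also held more sequence with a top Blastx hit in a fungus. Among the 1998 annotation entries held from the full list, 75 had such a hit and together took 64 fragments in leaf, against 44 in the mother root, 0 in the daughter root and 382 in the rootlet. Only 1 of the 75 was among the transcripts compared, and the part of non-plant RNA in the counts was not tested.

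The differences carried a large share of each library. The 4528 transcripts higher in leaf took 35.2% of all leaf fragments, against 2.15% in the mother root, 1.48% in the daughter root and 1.70% in the rootlet. The 2855 lower in leaf took 2.44% of leaf fragments, against 27.7% in the mother root, 29.8% in the daughter root and 28.7% in the rootlet. The share past 4-fold grew with abundance. Where the higher of leaf FPKM and root mean was at least 1000, 86 of 176 transcripts (48.9%) were at least 4-fold higher in leaf and 57 (32.4%) at least 4-fold lower. Between 100 and 1000 FPKM the larger share was on the root side, with 424 of 2692 (15.8%) higher in leaf and 739 (27.5%) lower. Below 5 FPKM, 69 of 5850 (1.18%) were higher in leaf and 113 (1.93%) lower, a range in which the added 1 leaves little room for a 4-fold ratio.

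**Figure D2:**
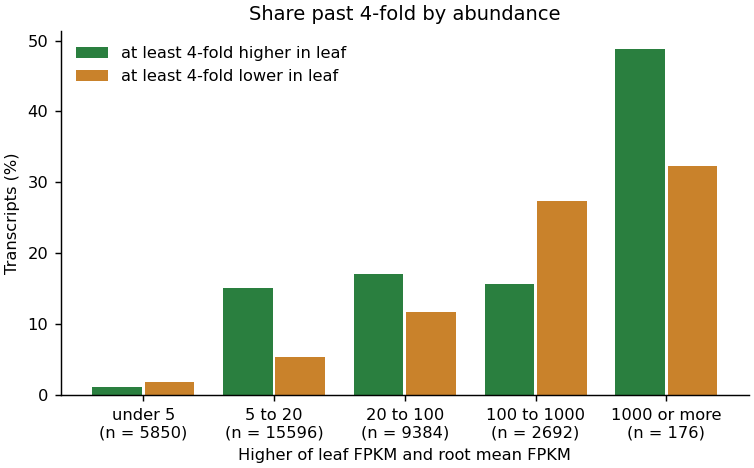
Percentage of transcripts at least 4-fold higher in leaf (green) and at least 4-fold lower in leaf (orange), by the higher of leaf FPKM and root mean FPKM, with the number of transcripts under each class. In the class of 1000 FPKM or more the leaf bar stands at 48.9% and the root bar at 32.4%, and the order is reversed between 100 and 1000 FPKM.

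The most abundant transcripts of the comparison could not be given a function. Of the 86 transcripts of at least 1000 FPKM that were higher in leaf, 1 had a description in the annotation held, and of the 57 lower in leaf none had. The annotation held gives a description for 2785 of the 129760 transcripts. The leaf side was led by a pair of transcripts without a description. TR40739|c5_g1_i1 had 35010 FPKM in leaf, against 6.67 in the mother root, 4.49 in the daughter root and 4.73 in the rootlet, and was 6611-fold higher in leaf than in the root mean (95% counting limits 4895 to 9161). TR40739|c6_g1_i1 had 31132 FPKM in leaf, against 2.46 in the mother root, 2.77 in the daughter root and 5.75 in the rootlet, and was 8510-fold higher (5615 to 13597). Both share a Trinity read cluster, TR40739. Counting limits here and below are conditional binomial limits of the Clopper-Pearson type that cover counting error only, not differences between plants. On the root side, TR45464|c2_g6_i1 had 4.08 FPKM in leaf from 2 fragments, against 2320 in the mother root, 12563 in the daughter root and 196 in the rootlet, and the root mean was 1233-fold above leaf (341 to 10184). TR48524|c0_g1_i3 had 335 FPKM in leaf, against 8279 in the mother root, 2186 in the daughter root and 5919 in the rootlet, and the root mean was 16.3-fold above leaf (14.1 to 19.0). The first was highest in daughter root and the second in mother root.

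Among described transcripts outside the study's sheet of transcripts seen in leaf alone, the highest levels on the leaf side belonged to defensins. These are small cysteine-rich proteins known for their action against fungi. TR15777|c0_g1_i1 had 1400.33 FPKM in leaf, against 18.6 in the mother root, 1.47 in the daughter root and 44.9 in the rootlet, and was 64.6-fold higher in leaf than in the root mean (49.5 to 85.9). TR15507|c0_g1_i1 had 854 FPKM in leaf, against 18.9 in the mother root, 2.69 in the daughter root and 24.8 in the rootlet, a 55.2-fold difference (45.5 to 67.6). A second transcript of the same cluster, TR15507|c0_g2_i1, had 304 FPKM in leaf, against 0.47 in the mother root, 0.21 in the daughter root and 1.84 in the rootlet (362-fold, 153 to 1126). All 3 defensins were lowest in daughter root. The other defence proteins on the list did not share this pattern. Acidic endochitinase (TR13429|c0_g1_i1), which cleaves chitin, had 42.9 FPKM in leaf, against 229 in the mother root, 141 in the daughter root and 326 in the rootlet, and the root mean was 5.41-fold above leaf (4.22 to 7.04). Pathogenesis-related 1 (TR17268|c0_g1_i1), a secreted protein used as a sign of defence signalling, had 136 FPKM in leaf, against 15.3 in the mother root, 346 in the daughter root and 7.03 in the rootlet. Its ratio of leaf to root mean was 1.11 (0.997 to 1.23), since daughter root lay above leaf and the other root libraries well below it. Of the 8 defence members of 10 listed, 3 were at least 4-fold higher in leaf and 2 at least 4-fold lower, beside 13.4% and 8.47% of all transcripts. Lists by description, here and below, drew in part on the study's sheet of transcripts seen in all 4 organs, itself chosen by expression. Of the 209 described transcripts compared from that sheet, 11.0% were at least 4-fold higher in leaf and 14.4% at least 4-fold lower.

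**Figure D3:**
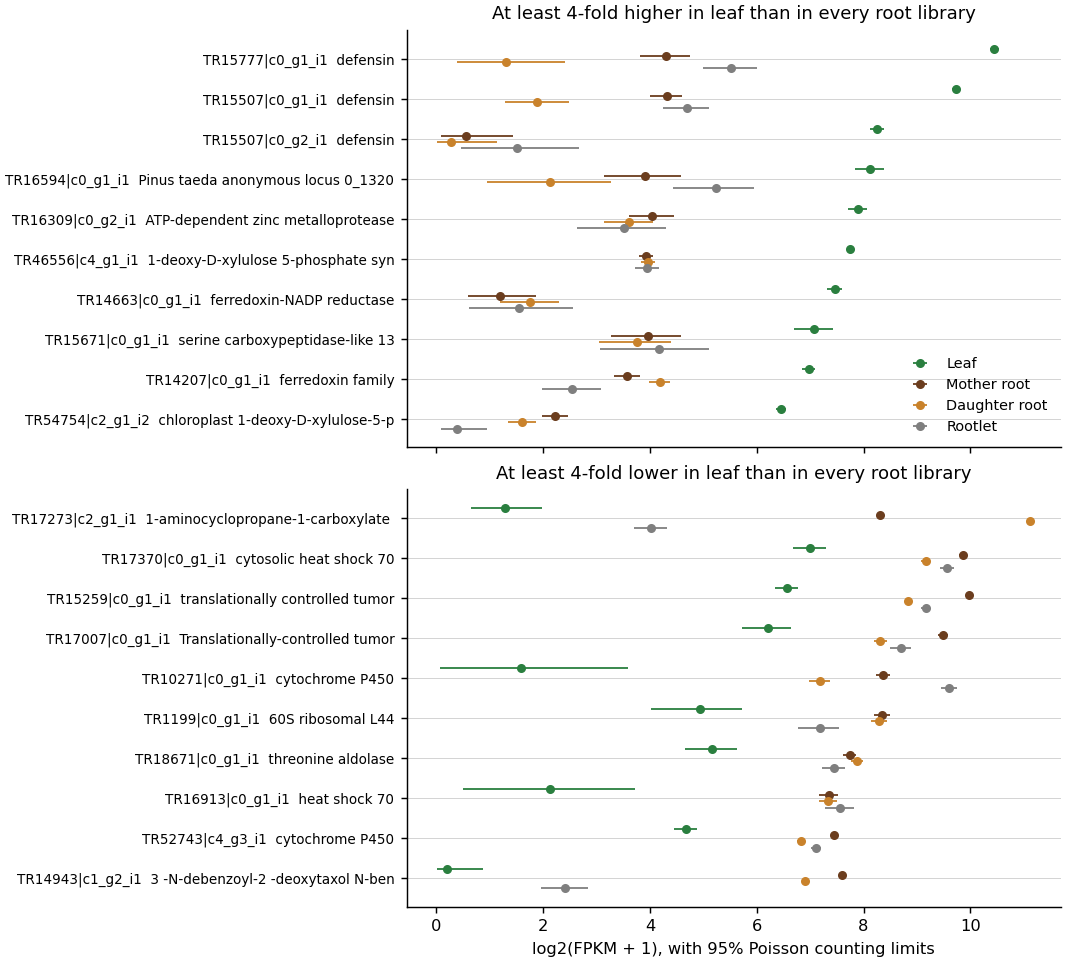
FPKM in leaf and in the 3 root libraries, as log2(FPKM + 1), for described transcripts. The upper panel holds the 10 with the highest leaf FPKM among those at least 4-fold higher in leaf than in every root library. The study's sheet of transcripts seen in leaf alone was left out of that choice. The lower panel holds the 10 with the highest root mean among those at least 4-fold lower in leaf than in every root library. Bars are 95% limits from the exact Poisson distribution of the fragments. In the upper panel every leaf point lies right of the root points, and in the lower panel every leaf point lies left of them, while daughter root and rootlet lie far apart for the oxidase TR17273|c2_g1_i1.

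Several of the other named transcripts on the leaf side encode proteins that work in the chloroplast. Of the 14 entries described as chloroplast proteins only 3 were compared, and 1 of them, 6-phosphofructokinase 5 (TR13744|c0_g1_i1), which acts in sugar breakdown, lay the other way with 9.36 FPKM in leaf, against 29.1 in the mother root, 26.2 in the daughter root and 22.8 in the rootlet. Ferredoxin-NADP reductase (TR14663|c0_g1_i1), the last carrier of photosynthetic electron transport, had 175 FPKM in leaf, against 1.28 in the mother root, 2.35 in the daughter root and 1.92 in the rootlet (94.7-fold, 60.4 to 157). The chloroplast metalloprotease FTSH 2 (TR16309|c0_g2_i1), known in *Arabidopsis* for the repair of photosystem II, had 236 FPKM in leaf, against 15.5 in the mother root, 11.3 in the daughter root and 10.4 in the rootlet (19.0-fold, 14.6 to 25.1). A ferredoxin family transcript (TR14207|c0_g1_i1) had 125 FPKM in leaf, against 10.8 in the mother root, 17.1 in the daughter root and 4.83 in the rootlet (11.4-fold, 9.90 to 13.2). Unlike the reductase, it was well above 0 in all root libraries. Serine carboxypeptidase-like 13 (TR15671|c0_g1_i1) had 133 FPKM in leaf, against 14.5 in the mother root, 12.5 in the daughter root and 16.99 in the rootlet (9.08-fold, 5.89 to 14.2). The cytochrome P450 TR17156|c0_g2_i1 had 31.0 FPKM in leaf from 213 fragments, against 0.06 in the mother root, 0.05 in the daughter root and 0.15 in the rootlet (367-fold, 110 to 2393).

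The held part of the study's sheet of transcripts seen in leaf alone contained 194 described transcripts that passed the minimum. These had 0 fragments in every root library by the way the sheet was made, so the following values are a description. The 5 with the most leaf fragments were a lipid transfer protein (TR34290|c1_g1_i1, 479 FPKM), a thylakoid lumenal protein (TR36478|c0_g1_i1, 299 FPKM), carotenoid cleavage dioxygenase 4 (TR32890|c0_g1_i1, 78.9 FPKM), a ferredoxin precursor (TR39184|c1_g2_i1, 224 FPKM) and phospholipase A1-Igamma1 (TR27637|c0_g1_i1, 763 FPKM). Set against a floor of 3 fragments in each root library, they were at least 447-fold, 385-fold, 349-fold, 304-fold and 263-fold higher in leaf, in that order. Thylakoid lumenal proteins and ferredoxin belong to photosynthesis, carotenoid cleavage dioxygenases degrade carotenoid pigments, and lipid transfer proteins are secreted in the epidermis, where they take part in cuticle formation.

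On the root side, the described transcript with the highest root mean encoded 1-aminocyclopropane-1-carboxylate oxidase (TR17273|c2_g1_i1), which makes the hormone ethylene. It had 1.43 FPKM in leaf, against 318 in the mother root, 2223 in the daughter root and 15.2 in the rootlet, and the root mean was 596-fold above leaf (289 to 1483). Leaf was below every root library, but the root libraries themselves differed widely. A transcript described as a taxol-type N-benzoyltransferase (TR14943|c1_g2_i1), the kind of enzyme that adds an acyl group to a specialized metabolite, had 0.15 FPKM in leaf from 1 fragment, against 193 in the mother root, 119 in the daughter root and 4.31 in the rootlet. With so few leaf fragments the 714-fold difference had wide counting limits (128 to 28217). The cytochrome P450 TR10271|c0_g1_i1, a short transcript, had 1.98 FPKM in leaf from 1 fragment, against 329 in the mother root, 145 in the daughter root and 779 in the rootlet (210-fold above leaf, 37.7 to 8319). Another P450, TR10121|c0_g1_i1, had 1.69 FPKM in leaf, against 97.2 in the mother root, 9.79 in the daughter root and 108 in the rootlet (42.6-fold above leaf, 25.8 to 76.2).

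The remaining transcripts with a high root mean were named by a rule that required them to be lower in leaf. Translationally controlled tumor protein, a conserved protein of growing cells, was represented by a pair of transcripts. TR15259|c0_g1_i1 had 93.3 FPKM in leaf, against 1004 in the mother root, 456 in the daughter root and 573 in the rootlet (7.26-fold above leaf, 6.25 to 8.48), and TR17007|c0_g1_i1 had 72.8 FPKM in leaf, against 719 in the mother root, 318 in the daughter root and 413 in the rootlet. Threonine aldolase (TR18671|c0_g1_i1), which splits threonine, had 34.97 FPKM in leaf, against 213 in the mother root, 234 in the daughter root and 173 in the rootlet (5.91-fold above leaf, 4.22 to 8.52).

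Ribosomal proteins, the building blocks of the ribosome, had lower FPKM in leaf for most entries compared. Of 32 entries so described, 11 were compared, 9 of them with at least 10 fragments in every library. The log2 ratio was below 0 for 10 of the 11, with a median of -1.49 beside 0.08 over all transcripts, and 4 were at least 4-fold lower in leaf and 1 at least 4-fold higher, beside 8.47% and 13.4% of all transcripts. Among the 209 described transcripts compared from the sheet seen in all 4 organs, the median was -0.37, with 14.4% lower and 11.0% higher. The held part of the sheet of transcripts seen in leaf alone, left out of the ribosomal counts, contained 34 ribosomal entries. Of these, 4 passed the minimum with at most 14 leaf fragments. Summed over the 32 entries, the FPKM was 481 in leaf, against 1688 in the mother root, 1692 in the daughter root and 1070 in the rootlet. The 60S protein L44 (TR1199|c0_g1_i1) had 29.6 FPKM in leaf, against 325 in the mother root, 311 in the daughter root and 144 in the rootlet (8.78-fold above leaf, 4.99 to 17.1). The 40S protein S9 (TR14216|c0_g1_i1) had 105 FPKM in leaf, against 354 in the mother root, 318 in the daughter root and 219 in the rootlet (2.83-fold above leaf, 2.13 to 3.85). The exception was a transcript described as ribosomal L20 (TR13009|c0_g2_i1), with 6.08 FPKM in leaf from 13 fragments, against 1.07 in the mother root, 0.49 in the daughter root and 0.47 in the rootlet.

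Heat shock proteins and chaperones, which help other proteins to fold, were lower in leaf in sum. Of 31 entries, 9 were compared, and 6 of these passed through the roots alone, so that their direction was partly fixed by the minimum. Of the 3 with at least 10 fragments in every library, 1 was at least 4-fold lower in leaf, beside 5.53% of all such transcripts. Of the described transcripts from the sheet seen in all 4 organs, 14 of 116 with that coverage were at least 4-fold lower. The held part of the sheet of transcripts seen in leaf alone contained 7 more entries described as heat shock proteins or chaperones, of which 2 passed the minimum. Summed over all 31 entries, the FPKM was 313 in leaf, against 1859 in the mother root, 1064 in the daughter root and 1410 in the rootlet. The cytosolic heat shock 70 transcript TR17370|c0_g1_i1 had 127 FPKM in leaf, against 929 in the mother root, 574 in the daughter root and 756 in the rootlet (5.94-fold above leaf, 4.8 to 7.43). Heat shock 70 TR16913|c0_g1_i1 had 3.39 FPKM in leaf from 2 fragments, against 162 in the mother root, 161 in the daughter root and 187 in the rootlet (50.1-fold above leaf, 13.8 to 415). A TCP-1 chaperonin (TR1261|c0_g1_i1) went least with the others, with 35.8 FPKM in leaf, against 42.4 in the mother root, 67.4 in the daughter root and 14.9 in the rootlet (1.16-fold, 0.787 to 1.77).

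Transcription factors and enzymes named for carbon fixation were few in the annotation held. Of 29 entries described as transcription factors 3 were compared. All 3 had at least 10 fragments in every library and were lower in leaf than in each root library, without reaching 4-fold. Of all 20528 transcripts with at least 10 fragments in every library, 7524 were likewise below every root library. In the held part of the sheet of transcripts seen in leaf alone, 13 entries matched the same words and 5 passed the minimum. These are higher in leaf by the way the sheet was made. GATA transcription factor 9-like (TR16127|c0_g2_i1) had 37.7 FPKM in leaf, against 141 in the mother root, 98.0 in the daughter root and 108 in the rootlet (3.07-fold above leaf, 2.06 to 4.75). The MYC2-like factor (TR11478|c0_g1_i1), known for jasmonate responses, had 16.8 FPKM in leaf, against 31.5 in the mother root, 30.3 in the daughter root and 28.5 in the rootlet. The 3 carbon fixation transcripts encode alanine aminotransferase and NADP-dependent malic enzyme, which also serve carbon and nitrogen metabolism outside photosynthesis. All 3 had at least 10 fragments in every library and were below every root library as well, beside the same 7524 of 20528. NADP-dependent malic enzyme (TR14371|c0_g1_i1) had 70.6 FPKM in leaf, against 138 in the mother root, 108 in the daughter root and 132 in the rootlet (1.79-fold above leaf, 1.42 to 2.27).

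Of 50 entries described as transporters or channels, 9 were compared, 6 of them through leaf alone, and 3 were at least 4-fold higher in leaf while none was 4-fold lower, beside 13.4% and 8.47% of all transcripts. All 3 had entered through leaf alone, a route that favours this direction, and summed over the 50 entries the FPKM was nearly level, at 251 in leaf, against 185 in the mother root, 213 in the daughter root and 212 in the rootlet. ABC transporter C family member 10-like (TR1524|c0_g1_i1) had 18.9 FPKM in leaf, against 2.16 in the mother root, 6.64 in the daughter root and 0 in the rootlet (6.43-fold, 4.15 to 9.90). ABC transporter C family member 4-like (TR18307|c0_g1_i1), the only one with at least 10 fragments in every library, had 35.5 FPKM in leaf, against 14.7 in the mother root, 9.84 in the daughter root and 17.8 in the rootlet (2.52-fold, 1.47 to 4.22). The potassium channel KAT1 (TR1789|c0_g1_i1), known in *Arabidopsis* from stomatal guard cells and named here after its values were seen, had 13.1 FPKM in leaf and 0 in all root libraries. Aquaporin PIP1 2 (TR13712|c0_g1_i1), a water channel, went against the list, with 11.7 FPKM in leaf from 5 fragments, against 30.2 in the mother root, 39.0 in the daughter root and 39.9 in the rootlet (3.11-fold above leaf, 1.28 to 9.86).

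Cell wall and sugar transcripts were divided. Cellulose synthase TR13416|c0_g1_i1 had 9.71 FPKM in leaf, against 24.2 in the mother root, 110 in the daughter root and 24.8 in the rootlet (5.46-fold above leaf, 3.16 to 10.3). Without daughter root in the root mean its log2 ratio was -1.25, so that its place past 4-fold rested on that library. Xyloglucan endotransglucosylase hydrolase (TR14537|c0_g1_i1), which remodels growing walls, had 11.5 FPKM in leaf, against 0.17 in the mother root, 0.78 in the daughter root and 0.89 in the rootlet (18.8-fold, 7.64 to 54.8). L-ascorbate oxidase homolog (TR15649|c0_g1_i1) had 2.27 FPKM in leaf from 4 fragments, against 5.43 in the mother root, 134 in the daughter root and 21.1 in the rootlet (23.6-fold above leaf, 9.16 to 86.8). Entries described as retroelements were at 380 FPKM in sum in leaf, against 115 in the mother root, 66.7 in the daughter root and 107 in the rootlet, over 120 entries of which 3 were compared, all through leaf alone. Those 3 had 4.1, 6.48 and 7.49 FPKM in leaf, so most of the leaf sum came from entries that fell short of the minimum.

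Most transcripts of the plastid MEP pathway had higher FPKM in leaf than in the root mean, and fewer of the MVA pathway did. Of 18 transcripts that the study assigned to MEP enzymes, 15 were compared, 14 of them with at least 10 fragments in every library. The log2 ratio was above 0 for 12 of the 15, with a median of 0.74 beside 0.08 over all transcripts. At least 4-fold higher in leaf were 3 of the 15, a share not far from the 13.4% of all transcripts, and none was 4-fold lower. Of the 14 with at least 10 fragments in every library 2 were at least 4-fold higher, beside 3.35% of all such transcripts. Summed over the 18, the FPKM was 1378 in leaf, against 601 in the mother root, 523 in the daughter root and 450 in the rootlet. Of 13 MVA transcripts 12 were compared, 11 of them with at least 10 fragments in every library. The log2 ratio was above 0 for 5 of the 12, with a median of -0.34. At least 4-fold lower in leaf were 3 of the 12, beside 8.47% of all transcripts and 5.53% of those with at least 10 fragments in every library, and none was 4-fold higher. Summed over the 13, the FPKM was 146 in leaf, against 230 in the mother root, 309 in the daughter root and 254 in the rootlet.

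Within the MEP pathway the largest differences lay at the entry and at the last step. DXS, the synthase of deoxyxylulose phosphate, makes the first intermediate. Its transcript TR46556|c4_g1_i1 had 213 FPKM in leaf, against 14.2 in the mother root, 14.6 in the daughter root and 14.4 in the rootlet (14.8-fold, 13.7 to 16.1). A second DXS transcript, TR54754|c2_g1_i2, had 86.6 FPKM in leaf, against 3.67 in the mother root, 2.02 in the daughter root and 0.31 in the rootlet (43.3-fold, 36.2 to 52.1). These 2 stood alone among the 8 DXS transcripts. Of the other 6, 3 had log2 ratios between -0.07 and 0.45, and 3 fell short of the minimum with 0, 0 and 2 leaf fragments and log2 ratios of -2.76, -1.43 and -1.28. The last enzyme, ISPH (TR49449|c3_g1_i1), which releases the terpenoid building units, had 369 FPKM in leaf, against 88.9 in the mother root, 103 in the daughter root and 74.2 in the rootlet (4.17-fold, 3.96 to 4.39). Its log2 ratio of 2.05 was 1.86 under TPM scaling, so its place past 4-fold depended on the scaling. ISPG (TR52997|c1_g1_i2), which acts just before it, had 241 FPKM in leaf, against 136 in the mother root, 87.3 in the daughter root and 89.4 in the rootlet (2.31-fold, 2.21 to 2.41). DXR (TR43149|c0_g1_i1), which acts just after DXS, had 67.9 FPKM in leaf, against 36.4 in the mother root, 18.4 in the daughter root and 42.6 in the rootlet (2.09-fold, 1.89 to 2.31).

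The middle of the MEP pathway differed little. ISPF (TR40389|c0_g1_i1) had 105 FPKM in leaf, against 74.99 in the mother root, 53.0 in the daughter root and 59.9 in the rootlet (1.68-fold, 1.5 to 1.88). For ISPE (TR41484|c0_g1_i1) the ratio of leaf to root mean was 0.890 (0.685 to 1.14), and for the higher of the ISPD transcripts (TR39144|c0_g1_i2) it was 1.18 (0.870 to 1.57), so that neither could be told from equal expression at this depth. Isopentenyl diphosphate isomerase (IPPI, TR42449|c0_g2_i1), which interconverts the building units, had 224 FPKM in leaf, against 185 in the mother root, 167 in the daughter root and 96.9 in the rootlet (1.5-fold, 1.41 to 1.60).

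**Figure D4:**
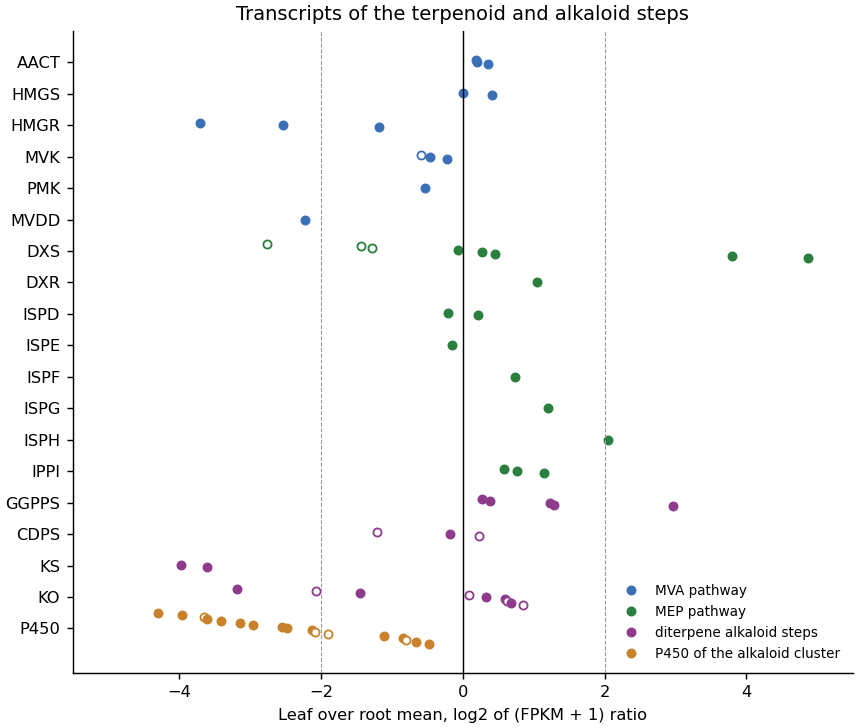
Log2 ratio of leaf to root mean, after adding 1 to each FPKM, for every transcript that the study assigned to MVA, MEP and diterpene alkaloid enzymes and for the 17 P450 transcripts of its alkaloid cluster, 1 row per enzyme. Filled points were compared, open points fell short of the minimum of 10 fragments, and dashed lines mark 4-fold. DXS has 2 points right of the upper dashed line, KS has both points left of the lower one, and all P450 points lie left of 0.

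In the MVA pathway the transcripts far from leaf were those of HMGR, which makes mevalonate and is a main point of control of the pathway, and of MVDD, which makes isopentenyl diphosphate. HMGR TR50314|c2_g1_i5 had 3.79 FPKM in leaf, against 64.5 in the mother root, 53.6 in the daughter root and 65.8 in the rootlet (16.2-fold above leaf, 11.6 to 23.3). HMGR TR50314|c2_g1_i1 had 7.17 FPKM in leaf, against 41.2 in the mother root, 56.2 in the daughter root and 41.8 in the rootlet (6.47-fold above leaf, 4.86 to 8.81). The third HMGR transcript, TR50314|c1_g1_i1, had 5.71 FPKM in leaf, against 4.06 in the mother root, 33.3 in the daughter root and 5.33 in the rootlet, and was thus above leaf only in daughter root. MVDD (TR50920|c0_g1_i1) had 5.05 FPKM in leaf, against 26.6 in the mother root, 33.0 in the daughter root and 22.3 in the rootlet (5.40-fold above leaf, 3.91 to 7.67). For the highest transcripts of the other steps the ratio to the root mean was smaller. The acetyl-CoA acetyltransferase AACT (TR49281|c2_g1_i2), the first enzyme, had a ratio of leaf to root mean of 1.15 (0.980 to 1.35). The transcript the study assigned to HMGS (TR50259|c0_g1_i1), although its description names a lyase, had a ratio of 1.35 (1.17 to 1.55), with 35.5 FPKM in leaf, against 25.6 in the mother root, 8.88 in the daughter root and 44.6 in the rootlet, so that leaf lay inside the range of the roots. The other HMGS transcript, TR44745|c0_g1_i1, is described as a synthase and had a log2 ratio of 0.003. It had 17.9 FPKM in leaf, against 9.46 in the mother root, 28.5 in the daughter root and 15.6 in the rootlet. The kinases had ratios of 0.689 for MVK (TR50024|c0_g1_i2, 0.455 to 1.01) and 0.668 for PMK (TR52617|c1_g1_i4, 0.520 to 0.848).

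Downstream of both pathways the steps towards diterpenes went in different directions. Geranylgeranyl pyrophosphate synthase (GGPPS) makes the common diterpene precursor, and all 5 of its transcripts had log2 ratios of leaf to root mean above 0. Leaf was slightly below daughter root for TR49767|c0_g1_i1 (15.47 against 15.95 FPKM) and TR49767|c0_g1_i4 (15.21 against 16.31). TR47741|c1_g1_i2 had 29.97 FPKM in leaf, against 8.33 in the mother root, 15.2 in the daughter root and 11.6 in the rootlet (2.56-fold, 2.13 to 3.07), and TR51056|c0_g1_i1 had 28.0 FPKM in leaf, against 2.92 in the mother root, 4.08 in the daughter root and 1.16 in the rootlet. *ent*-kaurene synthase (KS), which closes the ring system, was far lower in leaf. KS TR44184|c3_g1_i2 had 15.2 FPKM in leaf, against 350 in the mother root, 34.2 in the daughter root and 207 in the rootlet (12.9-fold above leaf, 11.2 to 15.01), and KS TR52848|c0_g1_i1 had 0.17 FPKM in leaf from 2 fragments, against 30.9 in the mother root, 9.85 in the daughter root and 11.6 in the rootlet (104-fold above leaf, 28.7 to 859). Both KS transcripts were lowest in leaf and second lowest in daughter root. The 3 transcripts of copalyl diphosphate synthase (CDPS), which prepares the substrate of KS, were near the limit of detection everywhere, with 3.16 FPKM in sum in leaf, against 4.11 in the mother root, 2.51 in the daughter root and 6.54 in the rootlet.

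Transcripts of *ent*-kaurene oxidase (KO), a P450 that also serves gibberellin synthesis, were split. TR40067|c2_g1_i1 had 21.7 FPKM in leaf, against 320 in the mother root, 83.4 in the daughter root and 211 in the rootlet (9.43-fold above leaf, 8.08 to 11.1). TR70877|c0_g1_i1 had 68.6 FPKM in leaf, against 77.2 in the mother root, 6.14 in the daughter root and 80.5 in the rootlet (1.26-fold higher in leaf than in the root mean, 1.05 to 1.49). Here leaf was level with mother root and rootlet, and daughter root alone was low. TR27131|c0_g1_i1 repeated that pattern, with 34.95 FPKM in leaf, against 31.7 in the mother root, 2.92 in the daughter root and 33.7 in the rootlet. Of the 13 transcripts of these diterpene steps that were compared, out of 19, 1 was at least 4-fold higher in leaf and 3 at least 4-fold lower, beside 13.4% and 8.47% of all transcripts.

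The 17 P450 transcripts of the study's alkaloid cluster had lower FPKM in leaf than in the root mean. Against single root libraries this did not always hold, since leaf was above rootlet for TR48278|c4_g1_i6 (8.02 against 6.05 FPKM), TR53321|c0_g1_i2 (1.34 against 1.21) and TR49987|c0_g2_i8 (3.03 against 2.13), and the last was above daughter root as well. P450 enzymes oxidize their substrates with a heme group held by a conserved cysteine near the end of the protein. The study chose these transcripts for the correlation of their expression with root-rich alkaloids over these same 4 organs, so their direction is no independent evidence. In sum they had 69.2 FPKM in leaf, against 776 in the mother root, 357 in the daughter root and 267 in the rootlet. Of the 13 that were compared, all had log2 ratios below 0, and 9 were at least 4-fold lower in leaf, beside 8.47% of all transcripts. Of those 13, 6 passed through the roots alone, and of the 5 with at least 10 fragments in every library 4 were at least 4-fold lower in leaf.

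The heme-binding motif was found by a search on the plus strand in 10 of the 17 nucleotide sequences given with the study. It is shown for the 4 compared transcripts that hold it and lie furthest from leaf, to show how their bases differ in and around the motif. Each line gives 90 bases, 5′ to 3′, with the 30 bases of the motif in capitals.
TR39654|c0_g2_i5: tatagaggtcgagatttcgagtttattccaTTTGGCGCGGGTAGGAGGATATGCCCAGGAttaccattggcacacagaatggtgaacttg
TR40787|c1_g1_i1: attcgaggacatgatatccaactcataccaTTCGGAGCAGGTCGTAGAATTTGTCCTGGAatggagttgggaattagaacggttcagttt
TR54550|c2_g1_i4: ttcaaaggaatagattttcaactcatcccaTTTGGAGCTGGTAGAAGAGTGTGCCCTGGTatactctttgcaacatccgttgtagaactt
TR54317|c1_g1_i4: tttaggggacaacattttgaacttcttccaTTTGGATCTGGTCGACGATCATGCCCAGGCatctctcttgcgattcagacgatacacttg

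TR39654|c0_g2_i5 had 1.01 FPKM in leaf, against 66.6 in the mother root, 31.7 in the daughter root and 17.7 in the rootlet (38.4-fold above leaf, 17.6 to 105). TR40787|c1_g1_i1 had 0.64 FPKM in leaf, against 38.0 in the mother root, 16.6 in the daughter root and 19.2 in the rootlet (38.6-fold above leaf, 17.7 to 105). Both rested on 6 leaf fragments. TR54550|c2_g1_i4 had 2.70 FPKM in leaf, against 77.9 in the mother root, 30.6 in the daughter root and 7.01 in the rootlet (14.2-fold above leaf, 9.10 to 23.7). TR54317|c1_g1_i4 had 0.15 FPKM in leaf from 1 fragment, against 12.6 in the mother root, 5.69 in the daughter root and 5.41 in the rootlet (54.4-fold above leaf, 9.69 to 2155). All 4 were highest in mother root, and daughter root was above rootlet in all but TR40787|c1_g1_i1.

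The most abundant P450 transcripts of the cluster were better covered in leaf. TR52743|c4_g3_i1 had 24.4 FPKM in leaf, against 173 in the mother root, 112 in the daughter root and 137 in the rootlet (5.77-fold above leaf, 4.95 to 6.77). TR48287|c0_g1_i1 had 20.3 FPKM in leaf, against 250.2 in the mother root, 81.8 in the daughter root and 39.0 in the rootlet (6.08-fold above leaf, 5.13 to 7.26). The call for TR48287|c0_g1_i1 leaned on mother root, without which its log2 ratio was -1.52, against -2.55 with it. TR47402|c0_g1_i2 had 2.34 FPKM in leaf, against 18.6 in the mother root, 12.01 in the daughter root and 10.2 in the rootlet, and its log2 ratio was -1.86 without mother root and -2.13 with it. TR35225|c0_g2_i1 had 0 fragments in leaf, and set against a floor of 3 fragments it was at least 6.64-fold lower in leaf than in the root mean. The transcript nearest to leaf was TR49987|c0_g2_i8, with 3.03 FPKM in leaf, against 9.27 in the mother root, 2.46 in the daughter root and 2.13 in the rootlet (1.52-fold above leaf, 0.794 to 3.28), which could not be told from equal expression at this depth.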

How the data were processed

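Trimmed reads (Trimmomatic) of all organs were assembled together with Trinity by the authors, who mapped each library with Bowtie 2 and quantified it with RSEM. Their deposited tables hold expected counts, all whole numbers, and FPKM, both used here. Deposited TPM and the deposited percent of each gene's expression per transcript were not used. Python 3.11.15, numpy 2.4.6, pandas 2.3.3, scipy 1.17.1 and matplotlib 3.10.9 were used. The pseudocount was 1 FPKM. No test was made, since each organ had 1 library. For 95% limits on ratios the 3 root counts were combined into 1 effective count, and the limits were checked on simulated data. Descriptions came from the paper's annotation tables, held in part. Lists by description used the full list and the sheet of transcripts seen in all 4 organs, and the leaf-only sheet entered no list. The naming rule took described transcripts past 4-fold against every root library with the highest leaf FPKM or root mean (10 each). The leaf-only sheet, also held in part, was left out of these and gave 5 of its own. The rule also took up to 4 of highest FPKM and the 1 furthest against the median per list. The highest per enzyme and 2 without description per side were added. A selection is described. Members and lists were chosen with earlier results of these data known. Alternatives were TPM scaling, median-of-ratios factors, a pseudocount of 0.1, a geometric root mean, leaving out each root library, minimums of 1, 5 and 20 fragments or scaled to depth, sums per Trinity gene, and 2-fold, 8-fold or every-root calls.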

Additional observations from a re-analysis of the deposited data

How the results depend on the processing

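The counts past 4-fold depended mainly on the minimum and the fold. Higher in leaf were 14048 transcripts with at least 1 fragment, 7637 with at least 5 and 2936 with at least 20, against 4528 with 10. Lower in leaf were 5250 with at least 1 fragment. At 2-fold, 8833 were higher and 6770 lower in leaf, and at 8-fold 2262 and 1400. Against each root library, 1280 were lower in leaf, and calls higher in leaf made up 72.4% of all calls, against 61.3% for the root mean. That share was 72.8% with at least 1 fragment. TPM scaling shifted the median log2 ratio of all transcripts by -0.17. The median of heat shock proteins and chaperones was -0.61 with at least 1 fragment, against -2.17. Counts past 4-fold under the other scalings, pseudocount and root means stayed within 1.5 times. The medians of the MVA, MEP, diterpene, alkaloid cluster P450, ribosomal and transporter lists stayed inside their limits. These limits came from the spread over the transcripts of each list, with transcripts of the same Trinity gene treated as independent. They were wide, from -3.18 to 1.23 for the diterpene steps, -2.22 to 0.20 for MVA and -0.56 to 2.34 for transporters. Staying inside them is therefore weak evidence of stability. The median of the diterpene steps, 0.32, was -0.17 when summed per Trinity gene, a change of sign within those limits. Of 62 named transcripts past 4-fold none changed sign and 9 fell below 4-fold in at least 1 of the 7 settings applied to them. No paired analysis was possible because each organ had 1 library. Depth limits ratios for transcripts with few leaf fragments, and with 1 library per organ the variation between plants is unknown.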
